A study of Mus musculus with 6 samples.

Results

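The genes described here are Foxn1 and 7 genes by which cortical thymic epithelial cells are usually recognised, namely Psmb11, Prss16, Ly75, Enpep, Ackr4, Tbata and Cd83. They were taken by name, and each matched 1 Ensembl row, so they make 8 of the 52636 genes in the count table. All 8 passed the filter on low counts. RNAseq covered tuft-like and non-tuft-like medullary thymic epithelial cells (mTEC), with 3 libraries of each, from C57BL/6 mice that were 6 weeks old and carried no transgene or treatment named in the labels. Both populations were sorted as UEA+ MHCIIlo CD80- Sca1- CD63- cells, the tuft-like cells being CD117+ CD66a+ and the non-tuft-like cells CD117- CD66a-. UEA is a lectin that binds medullary cells, so the gate was set for mTEC and no cortical population was sequenced. The sources do not state whether the 3 libraries of a population came from separate animals, and p-values then measure only the spread between these samples, which may be technical.

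FOXN1 is the forkhead transcription factor on which the formation and upkeep of the thymic epithelium depend, in the cortex and in the medulla. In the cortex, epithelial cells present self peptides that decide which thymocytes survive positive selection. For this they use the proteasome subunit beta5t (Psmb11) and a thymus-specific serine protease (Prss16), and Psmb11 is a well-known direct target of FOXN1. Cortical cells also carry CD205 (Ly75), Ly51 (Enpep) and the chemokine-scavenging receptor ACKR4 on their surface, and CD205 and Ly51 are the antigens by which they are sorted. Several of these genes are also active in mTEC or their precursors, so a medullary sort may hold their transcripts.

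Library totals on genes ranged from 20097617 to 48369825 reads. Reads assigned to no gene made up 19.72% (tuft-like replicate 3) to 61.6% (tuft-like replicate 1) of all counts listed for a library. The 9 tuft genes of a marker list summed to 814 to 1040 CPM (read counts after TMM scaling to a common library total) in the non-tuft-like and 10300 to 16400 CPM in the tuft-like libraries, in the direction of the labels. A list of 10 genes of mature mTEC summed to 14600 to 18200 and 2440 to 5390 CPM. Its largest members were Cd74 (means 8821 and 1727 CPM) and H2-Ab1 (5072 and 1150 CPM), while Aire had means of 292.0 and 20.51 CPM. Of the 10 genes 8 were fitted lower in tuft-like mTEC and 2 higher. Epcam, a surface protein of all thymic epithelium, had 230, 771 and 930 CPM in replicates 1, 2 and 3 of non-tuft-like mTEC and 248, 784 and 1040 CPM in those of tuft-like mTEC, so that it was lowest in replicate 1 of both populations. Markers of other cells were also counted, although the study's gating of tuft-like mTEC started from CD45- EpCAM1+ cells, a gate set to leave out blood cells, endothelium and pericytes. The 11 thymocyte genes summed to 21.5 to 38.3 CPM in non-tuft-like and 11.2 to 44.4 CPM in tuft-like libraries, with Cd3d, Cd8a, Cd8b1, Rag1 and Ptcra at 0 in at least 1 library. The 7 fibroblast genes summed to 31.8 to 61.1 and 14.8 to 165 CPM, with Col3a1 and Dpt at 0 in at least 1 library. Lists of pericyte, endothelial, B cell and dendritic cell genes, of which the first reached 369 CPM in non-tuft-like and the second 338 CPM in tuft-like libraries, are given beside the genes they bear on. The part of all these cells in the results was not tested.

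Foxn1 and Tbata were lower and Ackr4 was higher in tuft-like than in non-tuft-like mTEC, and the other 5 genes did not pass the test. Mean levels of Foxn1 were 151.2 ± 12.4 CPM for non-tuft-like and 13.53 ± 3.24 CPM for tuft-like mTEC (mean ± SD, n = 3 in each here and below). For Ackr4 the order was opposite, with 12.43 ± 8.63 and 107.0 ± 18.7 CPM. Called genes were those with a false discovery rate (FDR) under 0.05 in edgeR's quasi-likelihood test, adjusted by Benjamini-Hochberg over 32496 genes. By this rule 2 of the 8 cortical genes were lower, where 0.951% of all tested genes were, and 1 was higher, where 1.16% of all tested genes were. In 4 of the 8 genes every non-tuft-like library lay above every tuft-like library, which held for 8.85% of all tested genes, and in 1 the reverse held, which it did for 7.18%. The median log2 fold change (tuft-like over non-tuft-like) was -1.5 over the 8 genes and 0.0212 over all tested genes. These 8 genes and the lists below were chosen with earlier results of these data known. The shares and medians are therefore descriptions and carry no test. In bulk samples fewer cells of a type and less RNA per cell cannot be told apart, so a lower level may be either. With 3 libraries against 3, an exact permutation test (two-sided) on a single gene cannot go below 0.1, and this p is given beside each gene.

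**Figure D1:**
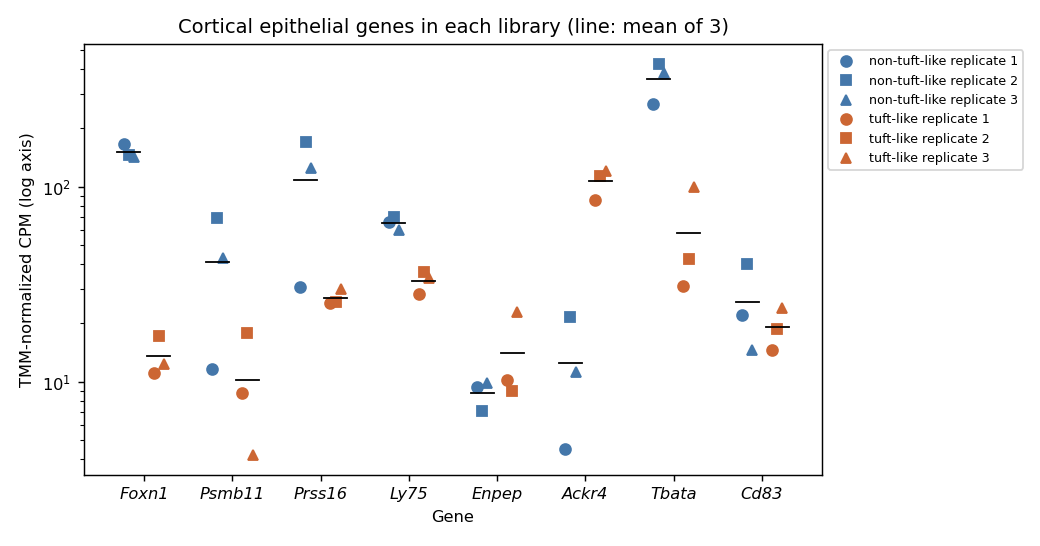
Level of each of the 8 genes in each library, as TMM-normalized CPM on a log axis; blue symbols are non-tuft-like and orange symbols tuft-like libraries, the shape gives the replicate number and the line the mean of 3. The Foxn1, Tbata and Ackr4 libraries of the populations are well apart, and those of Ly75 are apart by a smaller gap. Those of Prss16 nearly touch, and those of Psmb11, Enpep and Cd83 overlap.

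FOXN1 binds DNA through a short core, GACGC, and the stretch of 250 bases before the RefSeq start (GRCm38.p6) was searched for it on both strands, as GACGC or its reverse complement GCGTC. RefSeq starts were matched for 6 of the 8 genes and not for Prss16 and Cd83. These starts differ in part from the mm10 gene models used for names and lengths. The windows of Psmb11 and Ackr4 lie inside the gene models of these genes. For Foxn1 and Enpep the 25 bases checked downstream of the RefSeq start were in no transcript of the models. The windows of Psmb11 and Enpep hold the core and those of Foxn1, Ly75, Ackr4 and Tbata do not, while 22.6% of all 32851 windows hold at least 1 copy and 5.86% hold 2 or more. A match is only a description of these letters, and a window without a match says nothing about binding. The windows are shown for the 3 genes that were called and for the 2 genes that hold the core, 5′ to 3′ on the strand of the gene, in lower case with each core match in capitals. They lie at chr11:78386609-78386858 (minus strand) for Foxn1, chr14:54625060-54625309 (plus strand) for Psmb11, chr3:129332750-129332999 (minus strand) for Enpep, chr9:104126644-104126893 (minus strand) for Ackr4 and chr10:61171714-61171963 (plus strand) for Tbata.
Psmb11: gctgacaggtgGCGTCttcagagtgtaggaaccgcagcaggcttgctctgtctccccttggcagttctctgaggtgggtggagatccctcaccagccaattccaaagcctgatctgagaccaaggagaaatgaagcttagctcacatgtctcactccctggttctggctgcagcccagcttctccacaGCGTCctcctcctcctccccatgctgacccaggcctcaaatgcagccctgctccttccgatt
Enpep: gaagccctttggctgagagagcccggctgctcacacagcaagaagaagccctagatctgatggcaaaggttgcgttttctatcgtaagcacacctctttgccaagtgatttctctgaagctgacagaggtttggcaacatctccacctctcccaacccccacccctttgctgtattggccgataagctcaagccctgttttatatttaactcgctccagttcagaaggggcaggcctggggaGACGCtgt
Foxn1: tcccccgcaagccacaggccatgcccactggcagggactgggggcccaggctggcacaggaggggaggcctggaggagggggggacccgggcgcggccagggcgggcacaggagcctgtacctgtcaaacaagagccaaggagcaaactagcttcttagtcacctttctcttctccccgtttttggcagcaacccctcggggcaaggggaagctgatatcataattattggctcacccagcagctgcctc
Tbata: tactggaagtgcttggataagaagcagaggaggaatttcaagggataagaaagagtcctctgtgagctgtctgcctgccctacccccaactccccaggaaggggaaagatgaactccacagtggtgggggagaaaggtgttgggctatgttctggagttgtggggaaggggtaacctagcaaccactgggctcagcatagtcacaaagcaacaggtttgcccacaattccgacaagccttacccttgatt
Ackr4: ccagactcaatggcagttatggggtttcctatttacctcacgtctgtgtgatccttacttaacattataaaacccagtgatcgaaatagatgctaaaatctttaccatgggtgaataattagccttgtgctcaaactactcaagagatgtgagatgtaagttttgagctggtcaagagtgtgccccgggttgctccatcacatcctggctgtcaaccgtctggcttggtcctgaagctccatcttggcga
Counted upstream from the start, the matches of Psmb11 begin 239 and 62 bases away, both on the minus strand of the gene, and the match of Enpep begins 8 bases away on the plus strand. Beside these sequences stand the levels given below. There Psmb11 fell short of the test and Enpep exceeded a background limit in 1 library of each population. The 3 of the 8 genes that were called have no match in their windows. Of the 11 cortical support genes described below, Cxcl12, Kitl and 1 of 2 windows of Ccl25 hold the core, and Ccl25 was called lower. Windows of Dll4, Ctsl, Slc46a2, Krt8, Krt18 and Tnfrsf14 do not hold it, and Il7 and Cd40 had no window. No link between matches and levels was tested.

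Foxn1 (ENSMUSG00000002057, chromosome 11, 78357577 to 78386558, minus strand, mm10 gene model) had 165, 146 and 142 CPM in replicates 1, 2 and 3 of non-tuft-like mTEC and 11.1, 17.2 and 12.3 CPM in those of tuft-like mTEC. Values are given in this order of replicates throughout. The lowest non-tuft-like library was 8.26 times the highest tuft-like library, and the tuft-like mean was 8.95% of the non-tuft-like mean. The values rest on 4476 to 6862 reads in the non-tuft-like and 269 to 589 reads in the tuft-like libraries. The log2 fold change was -3.48 ± 0.305 (approximate SE; edgeR FDR 0.00043; exact permutation p = 0.1). By p-value Foxn1 ranked 28 of 32496 genes, and by size of the change 51 of the 309 genes that were lower. It was called in each of the 6 fits that left out 1 library, with log2 fold changes of -3.69 to -3.35 and FDR of 0.000704 to 0.00156. Non-tuft-like libraries varied little in Foxn1, with a coefficient of variation of 8.2%. Among 2786 genes within 2-fold of its level the median coefficient was 17.3%, and 13.9% of them varied less. Foxn1 was not at background in tuft-like mTEC. Its level per kb of exon was 3.46 to 5.36 CPM in these libraries, above a background limit of 1.24 to 2.75 CPM per kb. This limit was set in each library as the 99th percentile of 1134 olfactory receptor genes, which thymic epithelium transcribes at most weakly.

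The 3 other genes of the FOXN family that were tested were not called. Foxn2 had a log2 fold change of -0.35 ± 1.04, Foxn3 of 0.32 ± 0.284 and Foxn4 of -1.78 ± 1.28 (edgeR FDR 1 for each). Foxn3 was at 101 to 112 CPM in non-tuft-like and 96.5 to 170 CPM in tuft-like libraries, whereas Foxn2 and Foxn4 were at 0.249 and 0.0552 CPM in tuft-like replicate 3. Of 7 further transcription factors of the thymic primordium and its epithelium, 0 were lower and 1 was higher, where 0.951% and 1.16% of all tested genes were. The latter was Eya1, a coactivator needed for thymus formation, at 121, 175 and 88.1 CPM in non-tuft-like and 392, 497 and 558 CPM in tuft-like libraries (change 1.91 ± 0.338 on the log2 scale, edgeR FDR 0.0155). Trp63, the gene of the p63 factor of epithelial progenitors, was at 112, 203 and 158 against 26.4, 31.2 and 85.2 CPM without passing the test (-1.73 ± 0.457, edgeR FDR 0.107). Pax1 was fitted at -0.04 ± 0.454 (edgeR FDR 1) and Pax9 at -0.83 ± 0.369 (edgeR FDR 0.546). Each of the 6 genes of that list without a call had an edgeR FDR of at least 0.107.

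Over 11592 genes that averaged 10 CPM or more, the 5 whose profile over the 6 libraries lay nearest to that of Foxn1 were Prdm1, Aire, Phgdh, Rhbg and Icosl. Likeness was the root mean square difference of log2(CPM + 0.5) after each gene was centred on its own mean, so it takes in the size of the change. Prdm1, which encodes the repressor BLIMP1, was nearest (0.172, Pearson's r 0.995), at 49.3, 36.9 and 39.2 CPM in non-tuft-like and 2.56, 6.02 and 3.23 CPM in tuft-like libraries. Aire, the regulator of tissue-restricted antigens in mTEC, came next (0.219, r 0.997), at 341, 299 and 235 against 19.3, 23.4 and 18.8 CPM. Phgdh, the first enzyme of serine synthesis (0.231, r 0.992), the ammonium transporter Rhbg (0.279, r 0.987) and Icosl, the ligand of ICOS (0.285, r 0.988), followed. Of the other cortical genes Tbata was nearest to Foxn1, at place 122 (r 0.919), and Prss16, Psmb11 and Ly75 stood at 893, 897 and 927. Cd83 was at place 3871, Enpep at 9483 and Ackr4, which ran opposite to Foxn1, at 11461 (r -0.932). These correlations run over 6 libraries of 2 populations and are given as descriptions. Likeness by Pearson's r alone, which ignores size, kept 1 of the 5 nearest genes, Aire.

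**Figure D2:**
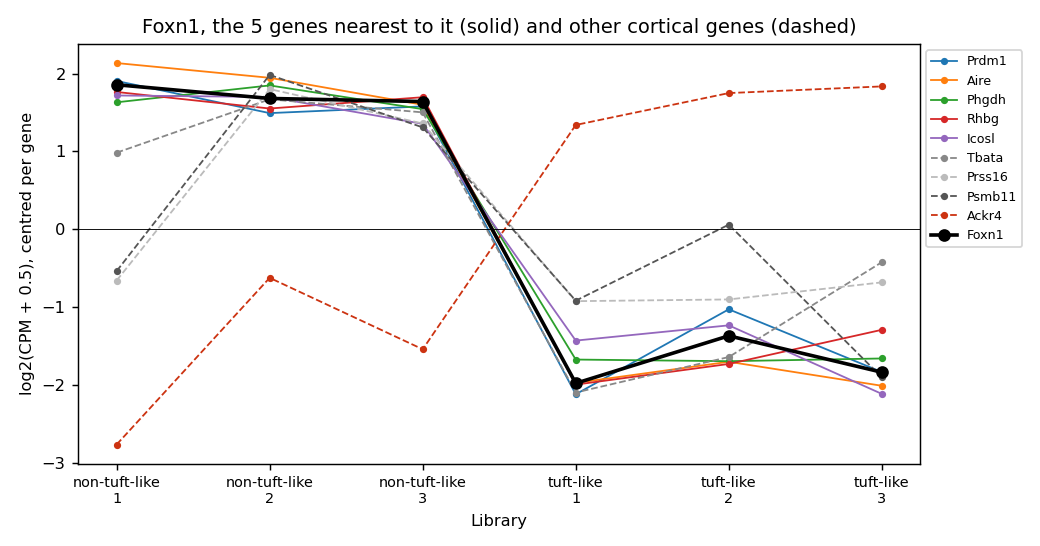
Profiles over the 6 libraries of Foxn1 (black), the 5 genes nearest to it (solid lines) and 4 other cortical genes (dashed lines), each as log2(CPM + 0.5) minus its own mean; lines only join the values of a gene. The solid lines run close to Foxn1 in all 6 libraries, Prss16 and Psmb11 drop away from it in non-tuft-like replicate 1, and Ackr4 runs the other way.

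Psmb11 and Prss16, the genes of the cortical peptide machinery, both had mean CPM in tuft-like mTEC that were 24.9% of those in non-tuft-like mTEC. Neither passed the test. Psmb11 (ENSMUSG00000072423, chromosome 14, 54621433 to 54629556, plus strand) was at 11.6, 68.9 and 43.0 CPM in non-tuft-like and at 8.8, 17.8 and 4.2 CPM in tuft-like libraries. Non-tuft-like replicate 1 lay below tuft-like replicate 2, so the populations overlapped. On the log2 scale the change was -2.0 ± 0.685 (edgeR p = 0.0148, FDR 0.272; exact permutation p = 0.2). Leaving out tuft-like replicate 2 gave -2.67, leaving out non-tuft-like replicate 2 gave -1.41, and none of the 6 fits of this kind called it. Per kb of exon Psmb11 exceeded the background limit in each non-tuft-like library and in 1 tuft-like library. The gene model used for its length holds 4791 bases of exon and begins upstream of the RefSeq start shown above, and a shorter model would raise its level per kb.

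Prss16 (ENSMUSG00000006179, chromosome 13, 22002173 to 22009742, minus strand) was at 30.5, 170 and 125 CPM in non-tuft-like and at 25.3, 25.7 and 30.0 CPM in tuft-like libraries. Tuft-like libraries were close to each other, and the low non-tuft-like value was again that of replicate 1, which exceeded the highest tuft-like library by a factor of only 1.02. On the log2 scale the change was -2.01 ± 0.517 (edgeR p = 0.0029, FDR 0.0956; exact permutation p = 0.1). Without non-tuft-like replicate 1 the change was -2.47 and was called (edgeR FDR 0.00409), and without each of the other 5 libraries it was not called. The same library was thus lowest of its population in Psmb11, Prss16 and Epcam, and it was lowest in Ackr4, Tbata and Ctsl as well, but highest in Foxn1.

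Psmb11 takes the place of the chymotrypsin-like subunits Psmb5 and Psmb8 in the catalytic core, and the other catalytic subunits were examined beside it. Of Psmb5, Psmb6, Psmb7, Psmb8, Psmb9 and Psmb10 none was called in either direction by edgeR, and 0 of the 6 had an unadjusted p under 0.05. Their fitted changes ran from -0.53 (Psmb9) to -0.16 (Psmb5) with a median of -0.28. Psmb5 was at 167, 146 and 121 CPM in non-tuft-like and at 97.3, 123 and 169 CPM in tuft-like libraries. Of the summed level per kb of exon of the 3 subunits that can fill this position, Psmb11 made up 0.849%, 5.35% and 4.08% in non-tuft-like and 1.18%, 1.77% and 0.3% in tuft-like libraries (exact permutation p = 0.3). Transcripts of Psmb11 were therefore a small share beside those of Psmb5 and Psmb8 in both populations.

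Of the surface antigens used to sort cortical epithelium, Ly75 had a lower fitted level in tuft-like mTEC and Enpep did not, and neither passed the test. Ly75 (ENSMUSG00000026980, chromosome 2, 60292103 to 60383303, minus strand), the endocytic receptor CD205, was at 65.9, 70.0 and 60.3 CPM in non-tuft-like and at 28.3, 36.5 and 33.9 CPM in tuft-like libraries. The populations did not overlap, the lowest non-tuft-like library being 1.65 times the highest tuft-like library, and the libraries of a population varied little (coefficients of variation 7.42% and 12.8%). The log2 fold change was -0.99 ± 0.277 (edgeR p = 0.0048, FDR 0.13; exact permutation p = 0.1). It kept between -1.07 and -0.89 whichever library was left out, with no call. An antisense transcript gene, Gm13571, covers 3.61% of the exon bases of Ly75, and since the strand setting of the counting is not stated, reads there cannot be assigned with certainty. Gm13571 itself was at 0.442, 0 and 1.14 CPM in non-tuft-like and 4.38, 5.14 and 2.49 CPM in tuft-like libraries, well below Ly75. CD205 is also carried by dendritic cells, which the CD45- gate is set to leave out, and the list of 10 dendritic cell and macrophage genes summed to 87.2 to 132 CPM in non-tuft-like and 60.4 to 101 CPM in tuft-like libraries, with Itgax, Clec9a and Ccr7 at 0 in at least 1 library. Of that list 7 genes were fitted lower and 3 higher in tuft-like mTEC. Cd68 alone was called lower (log2 fold change -3.30 ± 0.429, edgeR FDR 0.0028), where 0.951% of all tested genes were. In the other direction 0 were called, where 1.16% of all tested genes were. Ptprc, the gene of CD45, was fitted higher, with means of 8.675 and 23.21 CPM (1.42 ± 0.669, edgeR FDR 0.61). The part of such cells in the Ly75 values was not tested.

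Enpep (ENSMUSG00000028024, chromosome 3, 129269175 to 129332720, minus strand), the aminopeptidase known as Ly51, was at 9.4, 7.05 and 9.88 CPM in non-tuft-like and at 10.2, 8.92 and 22.7 CPM in tuft-like libraries. Tuft-like replicate 3 stood above the other 5 libraries, which lay close together. The log2 fold change was 0.67 ± 0.606 (edgeR FDR 1; exact permutation p = 0.4), and it was 0.09 without tuft-like replicate 3. Per kb of exon Enpep was above the background limit in 1 non-tuft-like and 1 tuft-like library, and in 4 of the 6 libraries it was not. This limit is a 99th percentile. The median olfactory receptor gene was at 0 to 0.436 CPM per kb, and Enpep was at 1.5 to 2.1 in non-tuft-like and 1.89 to 4.82 in tuft-like libraries. Pericytes also carry Ly51, and the 5 pericyte genes summed to 225 to 369 CPM in non-tuft-like and 46.6 to 85.3 CPM in tuft-like libraries, Rgs5 being called lower (-3.10 ± 0.528, edgeR FDR 0.013). Of the 5 genes 4 were fitted lower and 1 higher, and the EpCAM1+ gate is set to leave pericytes out. The part of pericytes in the Enpep values was not tested.

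Cd83 (ENSMUSG00000015396, chromosome 13, 43784775 to 43803132, plus strand) encodes a surface protein that keeps MHCII on cortical epithelium and is also found on dendritic cells and B cells. It was at 22.1, 40.0 and 14.6 CPM in non-tuft-like and at 14.5, 18.6 and 23.9 CPM in tuft-like libraries. The populations overlapped, and the log2 fold change of -0.43 ± 0.47 (edgeR FDR 1; exact permutation p = 0.6) was smaller than its error. Without non-tuft-like replicate 2, the highest library, the fitted change turned to 0.05. The 5 B cell genes summed to 18.4 to 26.1 CPM in non-tuft-like and 65.7 to 102 CPM in tuft-like libraries, with Cd79a at 0 in at least 1 library. The tuft-like sum was mostly that of Cd79b, at 47.9, 83.5 and 101 CPM (log2 fold change 3.20 ± 0.427, edgeR FDR 0.00317), and the part of B cells in the Cd83 values was not tested.

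Ackr4 was the only cortical gene that was higher in tuft-like mTEC by the test. Ackr4 (ENSMUSG00000079355, chromosome 9, 104084157 to 104126933, minus strand) encodes an atypical receptor that takes up CCL19, CCL21 and CCL25 without signalling through G proteins. It was at 4.51, 21.6 and 11.2 CPM in non-tuft-like and at 85.7, 114 and 121 CPM in tuft-like libraries. The lowest tuft-like library was 3.96 times the highest non-tuft-like library, and the tuft-like values rest on 2074 to 4375 reads. Its log2 fold change was 3.10 ± 0.512 (edgeR FDR 0.0109; exact permutation p = 0.1), which placed Ackr4 at 136 of the 378 higher genes by size. It was called in each of the 6 fits that left out 1 library, with changes of 2.68 to 3.77 and FDR of 0.00422 to 0.036. Non-tuft-like libraries were spread widely, and only 1 of them was above the background limit per kb, against all 3 tuft-like libraries.

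On the other strand, Acad11 overlaps 8.9% of the exon bases of Ackr4. Acad11, an enzyme of fatty acid breakdown, was at 43.4, 44.1 and 37.9 CPM in non-tuft-like and 46.7, 27.9 and 50.8 CPM in tuft-like libraries, with means of 41.82 ± 3.43 and 41.81 ± 12.2 CPM (edgeR FDR 1), so the overlapping gene was at the same mean level on both sides. Endothelial cells of lymphatic vessels also express Ackr4. The 5 endothelial genes summed to 35.7 to 63.7 CPM in non-tuft-like and 171 to 338 CPM in tuft-like libraries, with Emcn at 0 in at least 1 library. All 5 were fitted higher, and Tek alone was called (22.2, 36.7 and 11.4 against 169, 142 and 225 CPM, log2 fold change 2.93 ± 0.431, edgeR FDR 0.00565). The sum was mostly that of Tek in tuft-like replicates 2 and 3. Pecam1 was at 106, 8.16 and 3.07 CPM in tuft-like replicates 1, 2 and 3, and Kdr at 41.2, 12.7 and 0.221 CPM. The part of endothelial cells in the Ackr4 values was not tested. The related receptors Ackr1, Ackr2 and Ackr3 reached at most 6.82 CPM in any library and were not called (edgeR FDR 1 for each). Of the ligands, Ccl19 was at most at 2.0 CPM, Ccl21a was at 1.64, 3.15 and 2.7 against 0.0827, 0.0585 and 0.304 CPM (edgeR FDR 0.465), Ccl21b was listed at 0 in all 6 libraries, and Ccl25 is described with the cortical support genes. The study's methods do not state how reads that map to more than 1 gene were counted. Counts of the related genes Ccl21a and Ccl21b may therefore understate their transcripts.

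Tbata was the highest of the 8 genes in non-tuft-like mTEC, where its level exceeded that of Foxn1 in every library both as CPM and per kb of exon, and it was lower in tuft-like mTEC. Tbata (ENSMUSG00000020096, chromosome 10, 61171954 to 61188841, plus strand), also called Spatial, encodes a protein found in thymic stroma, brain and testis. It was at 266, 428 and 381 CPM in non-tuft-like and at 31.0, 42.7 and 100 CPM in tuft-like libraries. Tuft-like replicate 3 was the highest of its population, and the lowest non-tuft-like library was still 2.65 times as high. Its log2 fold change was -2.63 ± 0.452 (edgeR FDR 0.0135; exact permutation p = 0.1), and the tuft-like mean was 16.2% of the non-tuft-like mean. Tbata was called in 5 of the 6 fits that left out 1 library. Without tuft-like replicate 2 the change was -2.44 and the edgeR FDR 0.0714, and without tuft-like replicate 3 it was -3.32 (edgeR FDR 0.00222).

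Set per kb of exon, which allows genes to be compared with each other, the order of mean levels in non-tuft-like mTEC was Tbata (148 CPM per kb), Foxn1 (47.1), Prss16 (25.9), Cd83 (9.94), Ly75 (9.47), Psmb11 (8.59), Ackr4 (2.31) and Enpep (1.87). Tbata lay above Foxn1, and Foxn1 above Prss16, in every library of this population. From Prss16 downward each neighbour in the order overlapped the next in the range of its libraries. In tuft-like mTEC the order of levels was Tbata (23.9 CPM per kb), Ackr4 (19.9), Cd83 (7.38), Prss16 (6.45), Ly75 (4.76), Foxn1 (4.21), Enpep (2.97) and Psmb11 (2.14). There the libraries of Ackr4 did not overlap those of Cd83, nor those of Prss16 those of Ly75, while the other neighbours overlapped. Foxn1 thus stood in place 2 in non-tuft-like and in place 6 in tuft-like mTEC, and Ackr4 moved from place 7 to place 2. With the longest transcript as length, Ackr4 (39.7 CPM per kb) came before Tbata (38.5) in tuft-like mTEC and 4 of the 8 genes kept their place there.

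Genes that cortical epithelium uses to attract and nourish thymocytes, together with other cortical and FOXN1-dependent genes, were examined as a list of 11. Of these 4 were lower in tuft-like mTEC (Ccl25, Il7, Ctsl and Cd40), where 0.951% of all tested genes were, and 0 were higher, where 1.16% were. The median log2 fold change was -1.61 against 0.0212 over all tested genes. This list too was chosen with earlier results of these data known. Ccl25, a chemokine that draws progenitors to the thymus and a ligand of ACKR4, was at 147, 236 and 184 CPM in non-tuft-like and 26.8, 47.6 and 82.8 CPM in tuft-like libraries (change -1.85 ± 0.409, edgeR FDR 0.049). It was called in only 2 of the 6 fits that left out 1 library. Il7, the survival cytokine of thymocytes, was at 89.1, 117 and 89.7 against 25.1, 36.0 and 36.1 CPM (-1.61 ± 0.291, edgeR FDR 0.0176) and was called in 4 of 6. Ctsl, the cathepsin that prepares MHCII peptides in the cortex, was at 274, 647 and 629 against 88.5, 130 and 176 CPM (-1.98 ± 0.41, edgeR FDR 0.0358) and was called in 2 of 6. Cd40, a receptor through which T cells drive mTEC maturation, was at 94.0, 141 and 78.7 against 4.55, 6.11 and 14.9 CPM (-3.61 ± 0.49, edgeR FDR 0.00352) and was called in 6 of 6. Slc46a2, a transporter of thymic cortical epithelium, was at 155, 233 and 212 against 40.8, 27.3 and 91.6 CPM without a call (-1.91 ± 0.434, edgeR FDR 0.056). It was called lower in each of the 8 other settings that kept all libraries, and with 1 library left out only without tuft-like replicate 3.

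The remaining members of that list gave mixed values. The Notch ligand Dll4, on which T cell commitment depends, was at 35.3, 39.6 and 26.4 CPM in non-tuft-like and 23.7, 14.0 and 43.2 CPM in tuft-like libraries (-0.32 ± 0.44, edgeR FDR 1). Cxcl12 (-0.82 ± 0.517), Kitl (-1.87 ± 1.20) and Tnfrsf14 (-0.85 ± 0.575) had an edgeR FDR of at least 0.93. The simple keratins Krt8 (0.67 ± 0.439) and Krt18 (1.04 ± 0.415), which cortical epithelium shares with tuft cells, were the 2 with a higher fitted level, at an edgeR FDR of 0.968 and 0.417. Where 1 library was left out, 1 gene of the list was called lower without non-tuft-like replicate 2 or without tuft-like replicate 2, 2 without non-tuft-like replicate 3 or tuft-like replicate 1, and Cd40 was among them each time.

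**Figure D3:**
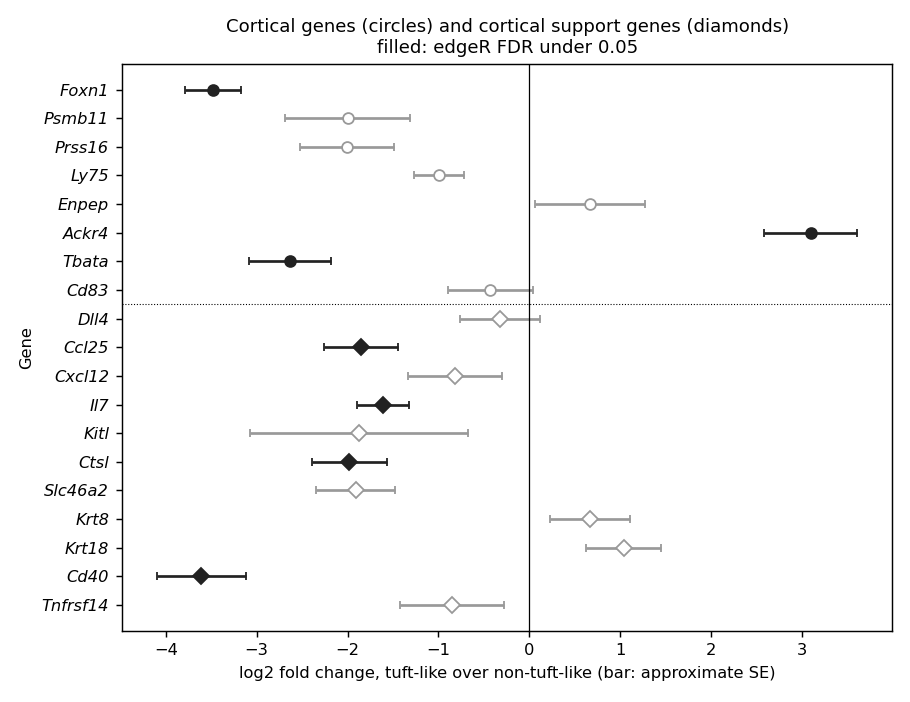
Log2 fold changes, tuft-like over non-tuft-like, of the 8 cortical genes (circles, above the dotted line) and the 11 cortical support genes (diamonds); bars are the approximate SE and filled symbols have an edgeR FDR under 0.05. Foxn1 at -3.48 and Cd40 at -3.61 are the lowest of the genes drawn, and Ackr4 at 3.10 is the highest.

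The calls of Foxn1 and Ackr4 stood in the main test and in all 14 other settings, which changed the scaling, the test, the filter or the libraries. Tbata was called in 13 of them. Prss16 was called by DESeq2, by edgeR's likelihood ratio test, with no filter and without non-tuft-like replicate 1. Ly75 was called with library size as the only scaling, by DESeq2 and with a filter of at least 1 CPM, and Psmb11 by DESeq2 and with no filter. Enpep and Cd83 were called in none of the 14, with FDR of at least 0.679 and 0.8. The fitted changes themselves moved little outside the fits with a library left out, as seen in the plot of fold changes by setting.

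**Figure D4:**
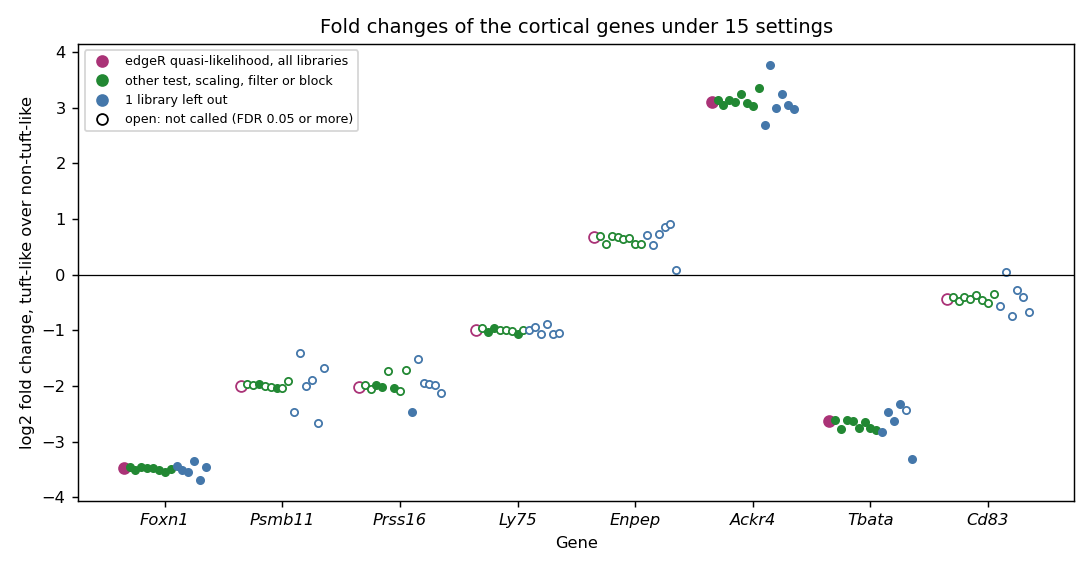
Log2 fold change of each of the 8 genes with edgeR's quasi-likelihood test on all libraries (purple), under another test, scaling, filter or the replicate block (green), and with 1 library left out (blue); filled points have an FDR under 0.05. Foxn1 stays between -3.69 and -3.35 and Ackr4 at 2.68 or above, all filled, and Cd83 is the gene whose points cross 0.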

How the data were processed

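Per the labels and the study's methods, RNA of sorted cells was sequenced with an ultra-low input kit, and trimming (Trimmomatic 0.36), alignment to mm10 (STAR 2.7.3a) and counting per gene (HTSeq) were done by the authors. The authors deposited these counts without normalization. The annotation release and strand setting are not given in the sources used here. Identifiers were matched to GENCODE M21, which named 99.72% of the 52636 rows. The 5 HTSeq summary rows and the 92 ERCC rows, all at 0, were left out. Groups came from the labels.

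Counts were filtered with filterByExpr (minimum count 10, minimum total 15), scaled by TMM and tested without covariates by the quasi-likelihood F-test of edgeR 4.0.16 (R 4.3.3), with Benjamini-Hochberg adjustment over all genes and a threshold of 0.05. The SE was approximated from the size of the fold change and the root of F. The script was tested on simulated data. Exact permutation tests used log2(CPM + 0.5). A depth of 20097617 to 48369825 counts puts the limit of 3 counts at 0.06387 to 0.124 CPM. Such limits cover counting error only. Common biological variation was 1.1.

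The sources do not state whether libraries with the same replicate number are pairs. Correlations of their deviations from the group means were -0.156, -0.061 and -0.326, which cannot decide it. Alternatives were RLE factors, library size only, DESeq2 1.42.0, the likelihood ratio test, limma 3.58.1 with voom, other filters, a replicate block and each library left out. The genes named were the 8 members, genes of the other lists, overlapping genes and the 5 genes nearest to Foxn1. Members and lists were chosen with earlier results of these data known.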

Additional observations from a re-analysis of the deposited data

How the results depend on the processing

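Foxn1, Ackr4 and Enpep kept their direction and their side of the threshold in all 14 alternatives. Over all genes, 687 were called in the main test, against 1045 with library size only, 1904 with DESeq2, 1236 with the likelihood ratio test, 1127 with no filter, and 376 (without tuft-like replicate 2) to 922 with 1 library left out. Without non-tuft-like replicate 2 the count was 379. Of the 8 cortical genes, 2 were called lower in the main test, 5 with DESeq2, 4 with no filter and 1 (without tuft-like replicate 2) to 3 (without non-tuft-like replicate 1) with 1 library left out. Over all tested genes 309 of 32496 were called lower in the main test, 930 of 32496 with DESeq2 and 577 of 47762 with no filter. Without tuft-like replicate 2 they were 154 of 35940, and without non-tuft-like replicate 1 they were 237 of 37286. Of the cortical support genes 4 were called lower, and 1 to 5 with 1 library left out, while Krt18 made 1 called higher with library size only, DESeq2 and limma voom. Psmb11 was called with DESeq2 (-1.97, FDR 0.0353) and with no filter (-2.04, FDR 0.0395). Prss16 was called with DESeq2 (-1.98, FDR 0.00185), the likelihood ratio test (-2.01, FDR 0.00975), no filter (-2.04, FDR 0.00225) and without non-tuft-like replicate 1 (-2.47, with -1.52 the other end of the range). Ly75 was called with library size only (-1.03, FDR 0.0455), DESeq2 (-0.96, FDR 0.0217) and at least 1 CPM (-1.06, FDR 0.0473). With 1 library left out Tbata ran from -3.32 to -2.32, losing its call without tuft-like replicate 2 (-2.44), Cd83 from -0.75 to 0.05, turning its direction without non-tuft-like replicate 2, and the median of the 8 genes ran from -1.73 to -1.17, the latter without that same library. The cause of these shifts was not tested. Ranks by the longest transcript kept 4 of 8 places in tuft-like mTEC, and Pearson's r kept 1 of the 5 genes nearest to Foxn1.

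The sources do not state whether libraries with the same replicate number came from the same thymi, so they were tested unpaired. With the number as a replicate block 376 genes were lower and 361 higher (737 in all), and the calls of the 8 genes were as in the main test. Depth limits Enpep, Psmb11 and Ackr4 most, whose lowest values rest on 248, 152 and 143 reads.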
